A study of Rattus norvegicus with 2 samples.

Results

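The 33 genes described here encode the enzymes of cholesterol synthesis, the SREBP proteins that control it, and proteins of cholesterol uptake, intracellular transport, storage and export. They were taken by gene symbol from a deposited table of 18049 rat genes, and all 33 were found. The measurements are from cultured precursors of oligodendrocytes (OPCs) of the rat, the cycling glia from which myelin-forming oligodendrocytes arise. Wild-type newborn pups gave the cortex from which these were isolated by immunopanning, a capture of cells on antibody-coated dishes. They were electroporated with an siRNA against Hsc70 (siHsc70) or with the control siRNA siSCR, and each group was 1 library, so cultures were not replicated. Hsc70 is a constitutive HSP70 chaperone encoded by Hspa8. Both groups carried no engineered allele and were placed in differentiation medium containing the thyroid hormone T3 at 60 nM, which also held forskolin, CNTF and insulin but no PDGF-AA, bFGF or NT3. The design text gives day 2 of T3 and names the cells immature oligodendrocytes. A single siRNA sequence against Hsc70 is given in the labels. The question put is how transcript levels differ in differentiating cells once Hsc70 is reduced.

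Cholesterol is a main lipid of myelin, and oligodendrocytes make most of what they use. Synthesis runs through mevalonate and isoprenoid units to squalene, which is closed into lanosterol and trimmed to cholesterol. The genes of this route are switched on together by the transcription factor SREBP2, which the escort protein SCAP carries out of the endoplasmic reticulum when sterols are low and which INSIG proteins hold back when sterols are high. Surplus sterol activates the LXR receptors, which raise export through ABC transporters and APOE.

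The libraries held 18130817 (siHsc70) and 19085626 (siSCR) estimated reads. Levels of a gene are given as CPM (reads scaled to a common total with TMM factors) and, where different genes are compared, as the deposited TPM, which is also scaled for transcript length. A gene was called measured where the 2 libraries averaged at least 1 CPM, as 13518 genes and all 33 members did. Differences are ratios of normalised counts with a 95% exact interval that covers counting error only. For counts and medians over gene lists, the difference of log2(CPM + 1), siHsc70 minus siSCR, was used. No test between the groups is possible with 1 library each, and whether any difference exceeds the spread between cultures was not testable. Hspa8 was at 507 CPM in siHsc70 and 1399 CPM in siSCR.

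Marker transcripts of several cell types differed between the libraries, in both directions. Of 11 measured oligodendrocyte markers, 10 were at least 2-fold lower in siHsc70, and the 12 listed markers summed to 1263 CPM in siHsc70 and 6759 CPM in siSCR. The most abundant of them, Mbp, encoding myelin basic protein, was at 414 CPM in siHsc70 and 1968 CPM in siSCR. Of 6 OPC markers 3 were at least 2-fold lower, with a sum of 1964 CPM in siHsc70 and 2943 CPM in siSCR, most of it Ptprz1 (1630 CPM in siHsc70, 2059 CPM in siSCR). Of 8 astrocyte markers 5 were higher and 3 lower, 2 of them at least 1.5-fold higher and 2 at least 2-fold lower, with a median log2 difference of 0.19. Their sum was nevertheless 3050 CPM in siHsc70 and 3648 CPM in siSCR, and Gfap, named after its values were seen, was at 667 CPM in siHsc70 and 1416 CPM in siSCR. Slc1a3, the most abundant, was at 1629 CPM in siHsc70 and 1522 CPM in siSCR. Of 8 neuronal markers 4 were higher, 2 of them at least 1.5-fold, and 4 were lower, all at least 1.5-fold, with a sum of 517 CPM in siHsc70 and 711 CPM in siSCR, led by Map2 (340 CPM in siHsc70, 526 CPM in siSCR). Microglial markers were near 0: the 5 of 8 found by name summed to 0.612 CPM in siHsc70 and 1.40 CPM in siSCR, and Aif1 and Tyrobp had 1 read each in siHsc70 and 0 in siSCR, where 3 reads (0.156 CPM) are the limit a count of 0 allows. The 7 endothelial and mural markers found by name summed to 103 CPM in siHsc70 and 46.5 CPM in siSCR, mostly Col1a1 (73.8 CPM in siHsc70, 24.3 CPM in siSCR). Of the 5 measured, 3 were at least 1.5-fold higher, all of them fibroblast or mural, while the endothelial Kdr and Flt1 were named after their values were seen. Kdr was lower, at 0.278 CPM in siHsc70 and 2.29 CPM in siSCR, and Flt1 was at 4.23 CPM in siHsc70 and 5.66 CPM in siSCR, within counting error. In such bulk samples fewer cells of a type and less RNA per cell cannot be told apart, and the part of these shifts in the differences below was not tested.

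Across the 33 members, differences were modest, and those of the synthesis enzymes were mostly in 1 direction. Of the 18 synthesis enzymes 16 were lower in siHsc70 and 2 were higher, with a median difference of -0.39 on the log2 scale. The other 15 members were split, 6 lower and 9 higher, with a median of 0.070. Of all 13518 measured genes, 6794 were lower and 6724 higher, with a median of -0.0034. No member was at least 2-fold lower, against 5.14% of measured genes, and none was at least 2-fold higher, against 2.29%. At 1.5-fold, 5 members were lower (Acat2, Insig1, Lss, Idi1 and Hmgcs1). This is 15.2% of the 33, near the 12% of all measured genes, although 4 of the 5 were among the 18 enzymes (22.2%). A single member, Npc2, was at least 1.5-fold higher, or 3.03% against 9.65% of measured genes. The counting interval lay below 1 for 20 members (60.6%, against 33.8% of measured genes) and above 1 for 7 (21.2%, against 32.5%). These shares depend on read number, and the members' median mean level was 115 CPM against 31.5 CPM for measured genes. With the deposited TPM in place of CPM the median of all genes was -0.13, 3 members passed the 2-fold rule downwards, 10 passed the 1.5-fold rule downwards and 0 upwards, and the median of the other 15 members turned to -0.066.

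**Figure D1:**
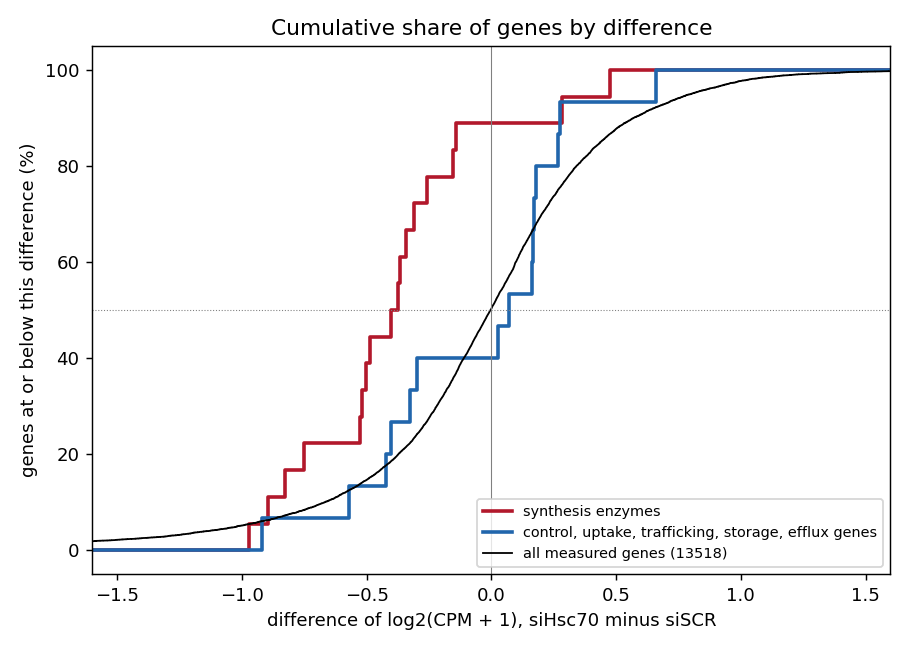
Cumulative share of genes (vertical axis, %) at or below each difference of log2(CPM + 1), siHsc70 minus siSCR (horizontal axis), for the 18 synthesis enzymes (red), the other 15 members (blue) and 13518 measured genes (black), from 1 library per group. The red curve lies to the left of the black one over most of its range, with medians of -0.39 and -0.0034, and its lowest gene, Acat2, is at -0.97.

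The early enzymes, which lead to mevalonate and isoprenoid units, were all lower in siHsc70. Together the 7 genes summed to 833 CPM in siHsc70 and 1354 CPM in siSCR, a ratio of 0.615 (0.603 to 0.628), with a median log2 difference of -0.53. Acat2 (gene ID 308100), the cytosolic thiolase that makes acetoacetyl-CoA, was at 46.4 CPM in siHsc70 and 91.9 CPM in siSCR, 1.98-fold lower (1.82 to 2.15) and the furthest from 0 of all members. Its row has fractional counts and a copy, Acat2l1, that can take its reads. With both rows added the level was 69.7 CPM in siHsc70 and 129 CPM in siSCR, 1.85-fold lower (1.73 to 1.98). Idi1 (89784), the isomerase of isopentenyl diphosphate, was at 93.1 CPM in siHsc70 and 166 CPM in siSCR, 1.78-fold lower (1.68 to 1.89). Hmgcs1 (29637), the HMG-CoA synthase of the cytosol, was at 431 CPM in siHsc70 and 727 CPM in siSCR, 1.68-fold lower (1.64 to 1.73). In the other enzymes of this stretch the gap was narrower. Fdps, which joins isoprenoid units into farnesyl diphosphate, was at 164 CPM in siHsc70 and 236 CPM in siSCR, with a ratio of 0.693 (0.661 to 0.726). Mvk, the mevalonate kinase, had 29.2 CPM in siHsc70 and 41.8 CPM in siSCR, a ratio of 0.699 (0.625 to 0.781). Mvd, the decarboxylase of the last mevalonate step, had 42.1 CPM in siHsc70 and 60.8 CPM in siSCR, a ratio of 0.694 (0.632 to 0.761). These 3 genes thus differed by nearly the same factor, while Pmvk, the phosphomevalonate kinase that acts between Mvk and Mvd, was at 26.9 CPM in siHsc70 and 30.0 CPM in siSCR, and its interval (0.792 to 1.01) held 1.

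The genes that turn farnesyl diphosphate into lanosterol were lower to differing degrees. Lss (81681), the cyclase that closes the sterol rings, was at 70.8 CPM in siHsc70 and 132 CPM in siSCR, 1.87-fold lower (1.75 to 2.00). Fdft1, squalene synthase, was at 118 CPM in siHsc70 and 153 CPM in siSCR, a ratio of 0.771 (0.729 to 0.815). Sqle, the squalene epoxidase and a flux-controlling enzyme of the route, was at 120 CPM in siHsc70 and 149 CPM in siSCR, a ratio of 0.805 (0.761 to 0.852). The intervals of Fdft1 and Sqle overlap each other, and neither overlaps that of Lss.

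**Figure D2:**
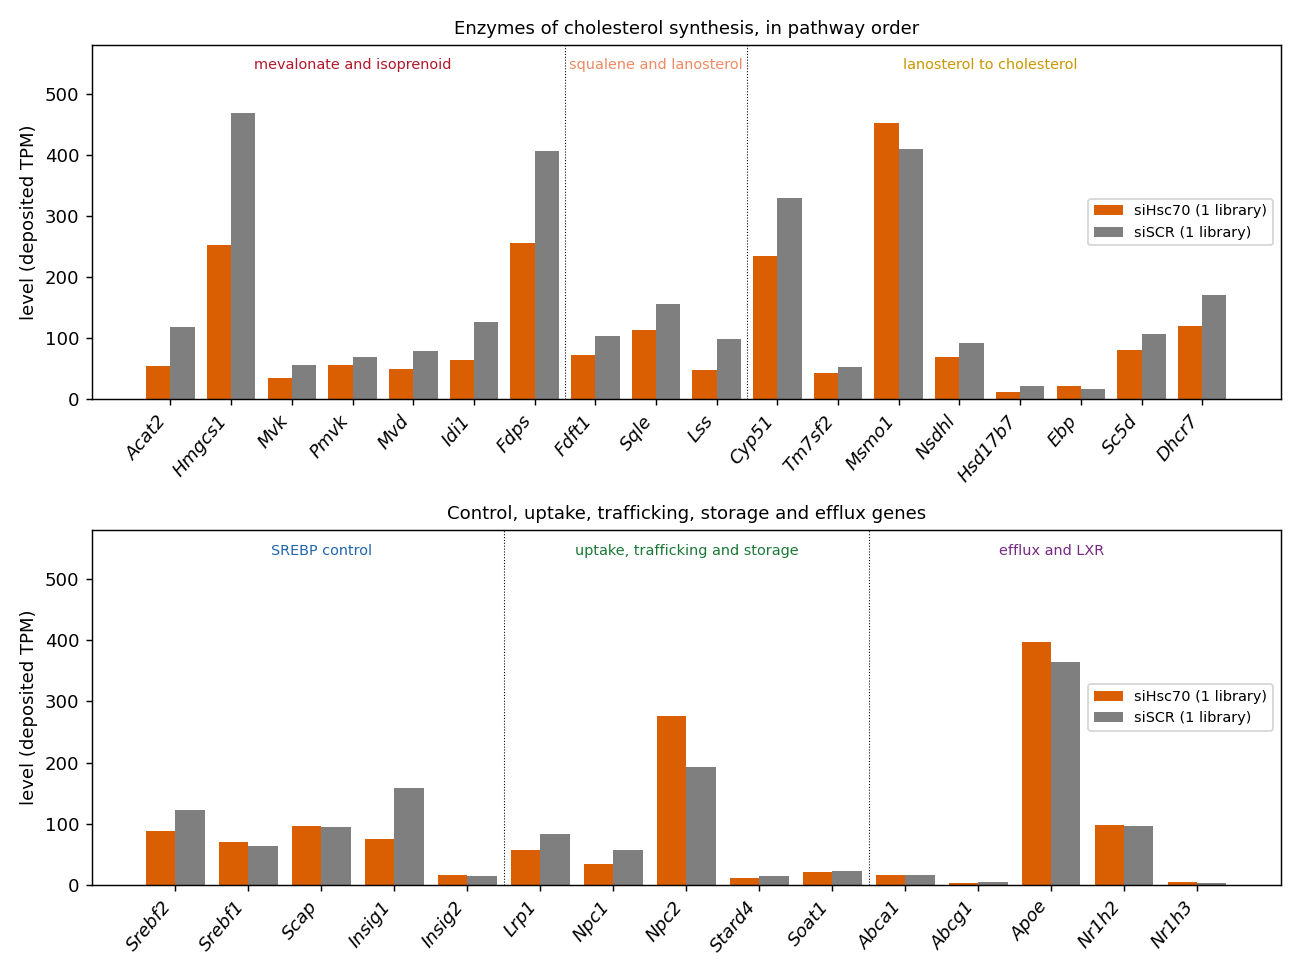
Deposited TPM (vertical axes, linear from 0) of each member in the siHsc70 library (orange) and the siSCR library (grey), with 18 synthesis enzymes in pathway order above and the other 15 genes below; 1 library per group, so there are no error bars. Hmgcs1 is at 252 TPM in siHsc70 and 468 TPM in siSCR, while Msmo1 (452 TPM in siHsc70, 410 TPM in siSCR) and Npc2 (276 TPM in siHsc70, 192 TPM in siSCR) stand higher in siHsc70.

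The late enzymes, which convert lanosterol into cholesterol, differed less and in both directions. The 8 genes summed to 1199 CPM in siHsc70 and 1342 CPM in siSCR, a ratio of 0.893 (0.877 to 0.910). This sum is drawn towards 1 by Msmo1, which was higher and had the most reads of the 8 in siHsc70. Of them 6 were lower and 2 higher, with a median log2 difference of -0.30, and none was 1.5-fold lower. Msmo1, the oxidase that begins the removal of methyl groups, was higher at 395 CPM in siHsc70 and 325 CPM in siSCR, a ratio of 1.22 (1.17 to 1.26). Nsdhl and Hsd17b7, whose products act after MSMO1 in the same demethylation cycle, were lower. Nsdhl was at 71.2 CPM in siHsc70 and 85.2 CPM in siSCR, a ratio of 0.835 (0.776 to 0.899). Hsd17b7 was at 27.4 CPM in siHsc70 and 38.7 CPM in siSCR, a ratio of 0.707 (0.629 to 0.793). The cycle's 3 genes thus did not move together. Ebp, the sterol isomerase, was the other higher enzyme, with 11.96 CPM in siHsc70 and 8.32 CPM in siSCR, a ratio of 1.44 (1.17 to 1.78) that rests on 215 reads in siHsc70 and 160 in siSCR. Cyp51, the lanosterol demethylase, had 367 CPM in siHsc70 and 465 CPM in siSCR, a ratio of 0.789 (0.764 to 0.815). Sc5d, a desaturase near the end of the route, was at 143 CPM in siHsc70 and 189 CPM in siSCR, a ratio of 0.755 (0.718 to 0.795). Dhcr7, which reduces dehydrocholesterol to cholesterol, was at 151 CPM in siHsc70 and 194 CPM in siSCR, a ratio of 0.776 (0.738 to 0.815). Tm7sf2, a sterol reductase acting after CYP51, was at 32.6 CPM in siHsc70 and 36.1 CPM in siSCR, and its interval (0.808 to 1.01) held 1.

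The genes that control synthesis were divided. Insig1 (64194), which encodes an anchor that holds the SCAP-SREBP complex back and is itself a target of SREBP, was at 93.8 CPM in siHsc70 and 178 CPM in siSCR, 1.90-fold lower (1.79 to 2.02). Its relative Insig2 was at 14.96 CPM in siHsc70 and 13.1 CPM in siSCR, a difference within counting error (0.958 to 1.36). On the TPM scale Insig2 was 0.218 times as abundant as Insig1 in siHsc70 and 0.0917 times in siSCR. Srebf2, which encodes the main factor for cholesterol synthesis, was at 232 CPM in siHsc70 and 291 CPM in siSCR, a ratio of 0.797 (0.766 to 0.830). Srebf1, whose SREBP1 products act mostly on fatty acid synthesis, was higher at 145 CPM in siHsc70 and 119 CPM in siSCR, a ratio of 1.21 (1.15 to 1.28). Between these genes the TPM ratio of Srebf1 to Srebf2 was 0.795 in siHsc70 and 0.519 in siSCR. Scap was at 209 CPM in siHsc70 and 187 CPM in siSCR, a ratio of 1.12 (1.07 to 1.17), but of only 1.01 with the deposited TPM.

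Because the enzyme genes and Insig1 are known to share control by SREBP2, which acts on promoters with the CCAAT-binding factor NF-Y and with SP1, the start regions of the members were searched. RefSeq windows of 300 bases (250 before to 50 after the start; rat assembly GRCr8) were held for 28 members, all but Abcg1, Fdft1, Pmvk, Sqle and Stard4. The sterol element letters TCACNCCAC, on either strand, were in none of the 28 and in 1.12% of 33469 windows of the table. The shorter CACNCCAC, which lies within those letters and was chosen after they gave no match, was in 3 of 28 (Acat2, Insig1 and Ebp) and in 5.80% of windows. CCAAT, on either strand, was in 20 of 28 members (71.4%), 12 of them among 15 synthesis enzymes, and in 37.5% of windows. GGGCGG was in 23 of 28 members (82.1%) and in 60.6% of the 12114 windows of measured genes, where CCAAT was in 37.2%. A member was counted if any of its windows matched, and Apoe and Srebf1 had multiple windows, while the general shares are per window. The median log2 difference was -0.36 in the 20 members with CCAAT and -0.14 in the 8 without, with ranges of -0.92 to 0.66 and -0.97 to 0.17 that overlap. This split cannot be told apart from that by step. Synthesis enzymes were 12 of the 20, while the 8 without include Npc1, Abca1, Nr1h2, Nr1h3 and Scap. A match is a description of letters, not of a bound site.

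Shown here are the windows of the 3 enzyme genes with a window and CCAAT that were at least 1.5-fold lower, of Insig1, and of Msmo1, which was higher, so that the 2 directions can be set side by side; all 5 read 5′ to 3′ along the gene, and capitals mark CCAAT, its reverse complement ATTGG and, in Insig1, GTGGCGTG, a reverse-strand match to CACNCCAC.
Hmgcs1 (chr2:53382054-53382353, plus strand): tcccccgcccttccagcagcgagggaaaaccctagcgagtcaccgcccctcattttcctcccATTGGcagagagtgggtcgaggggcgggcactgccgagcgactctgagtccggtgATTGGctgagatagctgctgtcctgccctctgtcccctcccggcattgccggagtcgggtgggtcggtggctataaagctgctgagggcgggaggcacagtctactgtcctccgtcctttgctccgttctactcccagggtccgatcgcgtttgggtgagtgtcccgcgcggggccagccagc
Idi1 (chr17:66547475-66547774, minus strand): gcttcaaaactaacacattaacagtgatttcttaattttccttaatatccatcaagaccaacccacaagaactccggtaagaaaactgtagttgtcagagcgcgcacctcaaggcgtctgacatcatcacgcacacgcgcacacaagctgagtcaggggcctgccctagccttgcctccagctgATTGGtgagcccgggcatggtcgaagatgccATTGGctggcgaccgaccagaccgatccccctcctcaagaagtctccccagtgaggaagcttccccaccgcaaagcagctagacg
Lss (chr20:12118181-12118480, minus strand): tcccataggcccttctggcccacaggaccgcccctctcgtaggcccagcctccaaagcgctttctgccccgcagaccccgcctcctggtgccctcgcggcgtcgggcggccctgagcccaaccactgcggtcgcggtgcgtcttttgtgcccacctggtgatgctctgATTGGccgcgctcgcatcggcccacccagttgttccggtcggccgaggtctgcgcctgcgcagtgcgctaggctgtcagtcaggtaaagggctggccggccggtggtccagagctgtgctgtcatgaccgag
Insig1 (chr4:8057720-8058019, minus strand): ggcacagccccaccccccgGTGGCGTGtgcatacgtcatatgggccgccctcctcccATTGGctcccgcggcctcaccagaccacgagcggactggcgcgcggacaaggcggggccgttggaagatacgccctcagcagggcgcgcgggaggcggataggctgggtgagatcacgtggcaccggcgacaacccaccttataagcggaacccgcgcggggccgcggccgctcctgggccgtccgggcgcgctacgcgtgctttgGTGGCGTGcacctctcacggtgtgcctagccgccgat
Msmo1 (chr16:29746863-29747162, plus strand): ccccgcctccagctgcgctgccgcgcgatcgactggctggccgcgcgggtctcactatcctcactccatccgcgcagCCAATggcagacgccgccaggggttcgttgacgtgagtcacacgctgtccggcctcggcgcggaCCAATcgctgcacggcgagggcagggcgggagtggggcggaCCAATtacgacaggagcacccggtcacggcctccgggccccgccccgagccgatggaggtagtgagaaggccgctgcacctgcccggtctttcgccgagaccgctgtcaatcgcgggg
Hmgcs1 and Idi1 carry 2 CCAAT matches each, all as ATTGG, Lss and Insig1 1 each, and Msmo1 3, all as CCAAT. Among the windows not shown, Mvk and Nsdhl, both lower in siHsc70, hold 5 matches each, while Acat2, the lowest of all members, holds 0. Of members that were higher, Npc2 holds 3, Ebp 2 and Srebf1 2 in 1 of its windows. Whether the number of matches goes with the direction was not tested.

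Genes of uptake, transport and storage went both ways. The strongest contrast was between the partners of lysosomal export. Npc2 (286898), the soluble protein that hands cholesterol to NPC1 inside the lysosome, was at 175 CPM in siHsc70 and 111 CPM in siSCR, 1.58-fold higher (1.499 to 1.67). Npc1, the membrane protein that passes cholesterol on, was at 92.5 CPM in siHsc70 and 138 CPM in siSCR, a ratio of 0.672 (0.631 to 0.715). The TPM ratio of Npc2 to Npc1 was accordingly 8.02 in siHsc70 and 3.40 in siSCR. Lrp1, an endocytic receptor for APOE-bearing lipoproteins, was at 438 CPM in siHsc70 and 587 CPM in siSCR, a ratio of 0.747 (0.725 to 0.769). Stard4, a sterol carrier of the cytosol, was at 26.3 CPM in siHsc70 and 32.6 CPM in siSCR, a ratio of 0.807 (0.715 to 0.911). Soat1, which esterifies cholesterol for storage, was at 18.5 CPM in siHsc70 and 18.1 CPM in siSCR, within counting error (0.876 to 1.19), and its direction turned with the deposited TPM (20.7 TPM in siHsc70, 22.4 TPM in siSCR).

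The export and LXR genes differed by less than 1.5-fold, with Abcg1 lower and Apoe and Nr1h2 higher beyond counting error. Apoe, the lipid carrier that astrocytes and microglia secrete, was at 229 CPM in siHsc70 and 191 CPM in siSCR, a ratio of 1.20 (1.15 to 1.26). Abca1, which loads cholesterol onto APOE, was at 87.1 CPM in siHsc70 and 82.9 CPM in siSCR, within counting error (0.979 to 1.13), and with the deposited TPM its direction turned (16.0 TPM in siHsc70, 16.8 TPM in siSCR). Abcg1, a second exporter, was low, at 6.45 CPM in siHsc70 and 8.84 CPM in siSCR, a ratio of 0.730 (0.572 to 0.930) from 116 reads in siHsc70 and 170 in siSCR. The LXR receptor gene Nr1h2 was at 97.5 CPM in siHsc70 and 86.5 CPM in siSCR, a ratio of 1.13 (1.05 to 1.20). With the deposited TPM its ratio was only 1.02. The other LXR gene, Nr1h3, had 60 reads in siHsc70 and 55 in siSCR (3.34 CPM in siHsc70, 2.86 CPM in siSCR), too few for its interval (0.796 to 1.71) to separate the libraries. On the TPM scale Nr1h3 was 0.0421 times as abundant as Nr1h2 in siHsc70 and 0.0394 times in siSCR. Microglia also express Apoe and Abca1, and their markers were at or near 0 as given above. Of the 8 astrocyte markers 5 were higher in siHsc70 and 3 lower, with a median log2 difference of 0.19 and, through Gfap, a lower sum (3050 CPM in siHsc70, 3648 CPM in siSCR). Their part in the Apoe level was not tested.

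**Figure D3:**
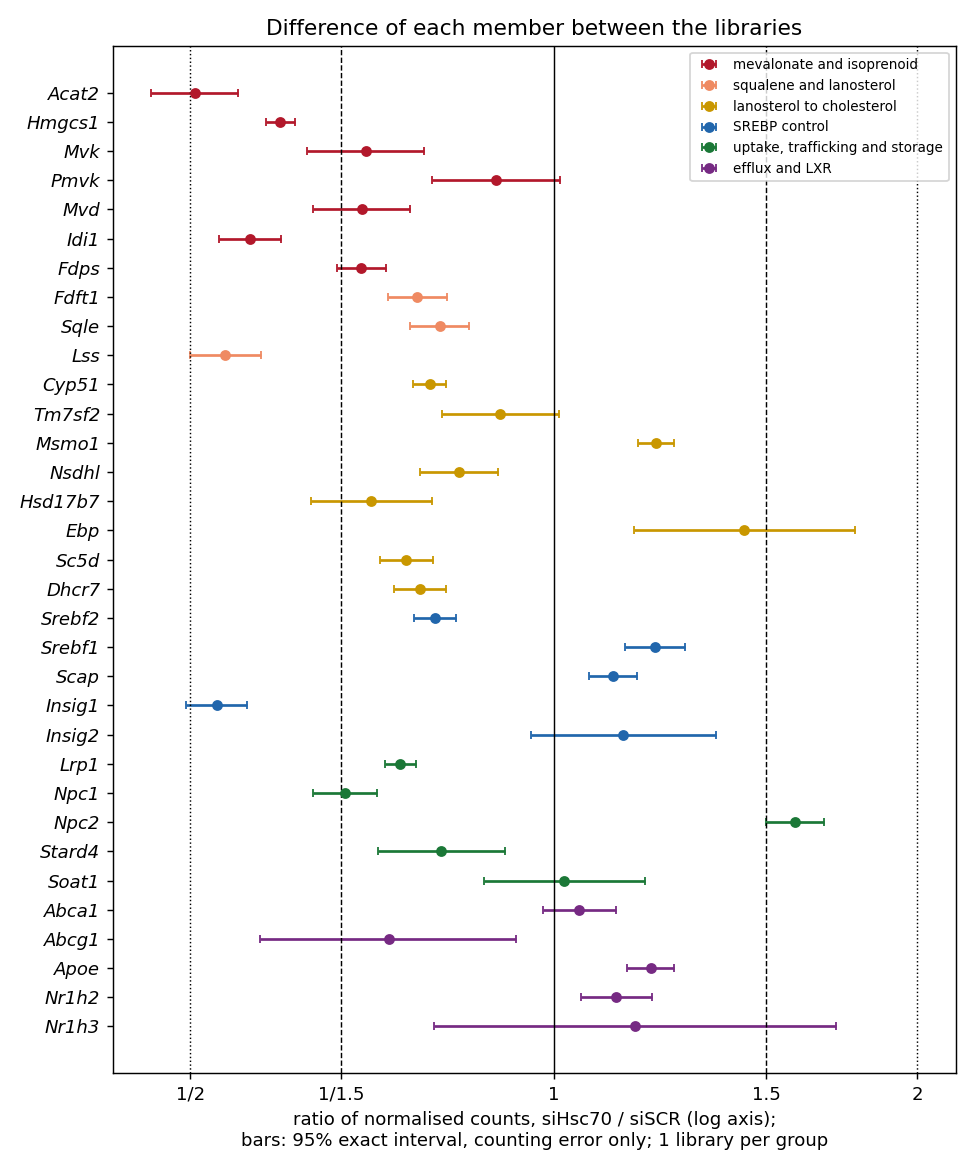
Ratio of normalised counts, siHsc70 over siSCR, for each of the 33 members (horizontal log axis; bars are 95% exact intervals of counting error, 1 library per group; dashed lines at 1.5-fold and dotted lines at 2-fold either way), coloured by step. Acat2, Insig1, Lss, Idi1 and Hmgcs1 lie left of the lower 1.5-fold line, and Npc2 at 1.58 is the 1 point right of the upper one.

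The order of the members by level shifted with these differences. In siHsc70 the 5 most abundant members were Msmo1 (452 TPM), Apoe (398 TPM), Npc2 (276 TPM), Fdps (255 TPM) and Hmgcs1 (252 TPM). In siSCR they were Hmgcs1 (468 TPM), Msmo1 (410 TPM), Fdps (406 TPM), Apoe (365 TPM) and Cyp51 (329 TPM). Summed over the 18 enzymes, the deposited TPM was 2036 in siHsc70 and 2882 in siSCR, a ratio of 0.707, and over the other 15 members it was 1266 in siHsc70 and 1311 in siSCR, a ratio of 0.966. Abcg1 (3.32 TPM in siHsc70, 4.92 TPM in siSCR) and Nr1h3 (4.16 TPM in siHsc70, 3.81 TPM in siSCR) were the least abundant in both. With 1 library per group the spread that would separate neighbours in this order is unknown.

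Estimated counts and FPKM together give the transcript length that the authors' quantification assigned to a gene in each library, a readout of which transcript forms the reads were placed on. For 30 of 33 members this effective length differed by less than 5% between the libraries (ratios of 0.968 to 1.02). The other 3 were Hsd17b7, at 4.31 kb in siHsc70 and 3.75 kb in siSCR, Sc5d, at 3.37 kb in siHsc70 and 3.69 kb in siSCR, and Insig2, at 1.73 kb in siHsc70 and 1.90 kb in siSCR. A departure of at least 5% was seen in 5.32% of 12011 genes with at least 1 FPKM in both libraries, and in 3 of 33 members, and no error can be put on it from 1 library each. For these 3 genes the fold depended on the unit. The FPKM ratio of Hsd17b7 was 0.605 beside a count ratio of 0.707, that of Sc5d was 0.815 beside 0.755, and that of Insig2 was 1.23 beside 1.14.

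**Figure D4:**
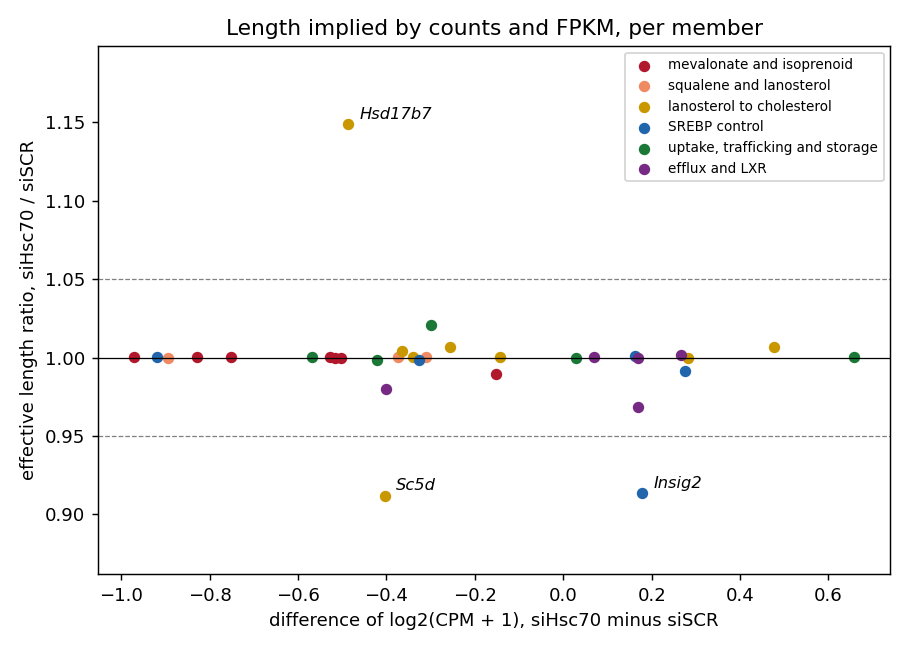
Ratio of effective transcript length, siHsc70 over siSCR (vertical axis), against the difference of log2(CPM + 1) (horizontal axis) for the 33 members, coloured by step; dashed lines mark 5% either way, from 1 library per group. Only Hsd17b7 (1.15), Sc5d (0.912) and Insig2 (0.913) lie outside the dashed lines.

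Of 37 further genes of the pathway, 36 were measured. On the log2(CPM + 1) scale 3 of these were at least 1.5-fold lower, 1 was at least 1.5-fold higher, and the median log2 difference was -0.089. The same rule was passed downwards by 12% and upwards by 9.65% of the 13518 genes. Counts of 3 and 1 among 36 genes are too small to be read as a difference from those shares. Scarb1, the scavenger receptor that takes up cholesterol from HDL, was at 39.2 CPM in siHsc70 and 123 CPM in siSCR, 3.13-fold lower (2.87 to 3.40). Abca2, an endolysosomal transporter abundant in oligodendrocytes, was at 178 CPM in siHsc70 and 358 CPM in siSCR, 2.01-fold lower (1.93 to 2.10). Vldlr, a lipoprotein receptor, was at 88.5 CPM in siHsc70 and 152 CPM in siSCR, 1.72-fold lower (1.62 to 1.83). Pltp, which transfers phospholipids between lipoproteins, was at 13.0 CPM in siHsc70 and 7.02 CPM in siSCR, a ratio of 1.85 (1.49 to 2.30). In the lists with none past 1.5-fold on that scale, the genes furthest from 0 were Lbr, a sterol reductase of the nuclear envelope (9.12 CPM in siHsc70, 13.7 CPM in siSCR), and Rnf145, a sterol-responsive ubiquitin ligase (53.5 CPM in siHsc70, 78.4 CPM in siSCR). As plain ratios, Lbr was 1.505-fold lower (1.23 to 1.84), and Cyp27a1, a sterol hydroxylase named after its values were seen, was at 4.67 CPM in siHsc70 and 2.91 CPM in siSCR, a ratio of 1.605 (1.13 to 2.29); both are low genes that the pseudocount keeps under the rule. The 2 largest differences in the wider pathway, those of Scarb1 and Abca2, were thus in uptake and transport genes outside the 33.

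Some members share sequence with a neighbour, and the strand setting of the counts is not given in the sources used here. By RefSeq positions Idi1, Srebf1, Nr1h3 and Npc1 overlap Wdr37, Rai1, Acp2 and Rmc1. Wdr37 was 1.24-fold lower (29.6 CPM in siHsc70, 36.8 CPM in siSCR), and the other partners differed by less than that, with ratios of 0.860 for Rai1, 1.11 for Acp2 and 1.13 for Rmc1 (deposited as RGD1311805). The partner differed in the direction opposite to Srebf1 and Npc1 and in the same direction as Idi1 and Nr1h3. Reads of each pair cannot be told apart if strand was not used.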

How the data were processed

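Per the labels, total RNA from siHsc70 and siSCR cells was sequenced, 1 library per group. The deposited table, per the file headers, holds for each library estimated counts (read counts per gene before normalisation, not all whole), FPKM (scaled for transcript length and library size by the authors) and TPM (scaled for length to a fixed total by the authors). The siRNA named in each of the 6 columns gave its sample. Not given in the sources used here are the aligner, counting program, annotation and strand setting. A mouse build, mm39, is named in the submitters' processing notes, although the gene IDs are rat, so no coordinates were taken from the files.

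Estimated counts were rounded and scaled to CPM with TMM factors (0.992 for siHsc70, 1.01 for siSCR) of edgeR 4.0.16 in R 4.3.3. Intervals are 95% Clopper-Pearson (scipy 1.17.1) on the reads of both libraries and cover counting error only. They treat reads as independent, which PCR copies are not, so they can be too narrow. The log2 differences over lists add a pseudocount of 1 and so shrink those of weakly expressed genes. The procedure was tested on simulated Poisson counts, which hold no spread between cultures and no PCR copies. That test therefore checks the calculation only. Every member is named. Of the other pathway genes, those past 1.5-fold on the log2(CPM + 1) scale are named, or else the one furthest from 0 in each list, and of markers the most abundant gene and any at 0. Some pathway genes counted in the lists are not reported here by name. The members, lists, thresholds and 9 alternatives were chosen with earlier results of these data known. Effective length is the estimated count divided by FPKM and by the library total. Windows around gene starts come from RefSeq (GRCr8), matched by gene ID.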

Additional observations from a re-analysis of the deposited data

How the results depend on the processing

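No replicate could be left out and no paired analysis was possible because each group has 1 library. The 9 alternatives were upper-quartile, RLE and total-count scaling, a pseudocount of 0.1, no minimum mean or one of 5 CPM, the deposited TPM or FPKM, and copy rows added. With the deposited TPM the median of all genes was itself -0.13. There 3 members were at least 2-fold lower (0 with CPM), 10 were at least 1.5-fold lower (5 with CPM) and 0 at least 1.5-fold higher (1 with CPM). The median of the enzymes was then -0.51, and that of the other members changed sign to -0.066. Relative to the median of all genes, these medians were -0.39 to -0.37 and 0.056 to 0.077 under the main and all 9 settings. A change of scaling moves all genes nearly alike, so across the scalings this agreement was largely fixed in advance. Copy rows are those with names derived from a member's, whether or not they share its reads. With them added 2 members were at least 1.5-fold higher, Npc2 and Ebp. Ebp passed only through Ebpl, a separate EBP-like gene, and its own ratio was 1.44. Under the alternatives run, 2 of 33 members changed sign, Soat1 and Abca1, both with the deposited TPM; Nr1h3 has no value at a minimum of 5 CPM. Abcg1, Nr1h3, Ebp and Insig2 are limited by read number.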

Other observations

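Rows with names derived from a member's were looked at beside it. Ebpl, the EBP-like gene, was higher in siHsc70, as Ebp was: it had 176 reads in siHsc70 and 96 in siSCR, a ratio of 1.96 (1.52 to 2.54), and Ebp and Ebpl together were at 21.7 CPM in siHsc70 and 13.3 CPM in siSCR. Acat2l1, the copy of Acat2, was at 23.4 CPM in siHsc70 and 37.1 CPM in siSCR, a ratio of 0.629 (0.557 to 0.711), so that both thiolase rows were lower. Npc1l1, an intestinal sterol transporter gene related to Npc1, had 2 reads in siHsc70 and 1 in siSCR.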
